A study of Caenorhabditis elegans with 2 samples.

Results

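The genes described here are 6 of the 19973 nuclear protein-coding genes of Caenorhabditis elegans, the members of its Mad, Max, Mondo and TFEB families of basic helix-loop-helix (bHLH) transcription factors. They are mdl-1, mxl-1, mxl-3, mml-1, mxl-2 and hlh-30. The set was listed by family, but it was chosen on measured values as well, since mdl-1 and hlh-30 were known from these same peak lists to be the nearest genes of several peaks. Counts of peaks at these genes are therefore a description and were not tested.

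The data are peak lists from chromatin immunoprecipitation and sequencing (ChIP-seq) of ELT-3, a GATA-type zinc finger factor of the epidermis. All worms were whole L1 larvae, the larval stage after hatching, of strain OP75, males and females pooled, and their age was given as unknown. The strain carries unc-119(ed3) on chromosome III and the integrated transgene wgIs75, from which ELT-3 is made with a GFP-FLAG tag at its C-terminus. There were 2 biological replicates of this 1 group, lists from worms without the transgene were not used here, and whole larvae do not show in which cells a site was bound.

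A peak is a stretch of genome with more ChIP reads than its surroundings, and its summit is the base where the authors placed its maximum. On the ce11 build the authors deposited 17087 peaks for replicate 1, 7079 for replicate 2, 30000 for both replicates pooled, and a set of 1014 peaks kept by an irreproducible discovery rate (IDR) threshold. The pooled and replicate lists hold peaks and background together. Each peak carries the authors' own signal value, and since that scale is not shared between lists, a peak is described here by its rank in its own list, with rank 1 the highest. The median signal of the IDR set was 61.1 and its range was 46.2 to 281.

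Factors of the Myc, Max, Mad and Mondo families bind DNA as pairs, typically at E-boxes with the letters CACGTG. In the worm, MDL-1, a Mad-like factor, pairs with the Max-like MXL-1, and the Mondo protein MML-1 pairs with the Max-like MXL-2. HLH-30, the worm TFEB, activates autophagy and lysosome genes and is held in check by TOR signalling, and MXL-3 acts against it on lysosomal lipase genes in fed animals. GATA factors such as ELT-3 recognise GATA flanked by A or T before it and A or G after it, that is AGATAA or its variant AGATAG, and TGATAA or its variant TGATAG, on either strand, called GATA words in what follows.

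Of the 6 genes, 4 had at least 1 IDR summit between 10 kb upstream of the annotated 5′ end and the end of the gene, against 10.8% of all genes. These were mdl-1 with 3 summits, mxl-3 with 2, mml-1 with 2 and hlh-30 with 4, and mxl-1 and mxl-2 had none. All 4 genes had at least 2 summits, which 2.11% of all genes had, but mml-1 had 1 when the strongest peaks of replicate 1 alone were used (without replicate 2). At least 3 summits were found at mdl-1 and hlh-30, against 0.33% of all genes, and at least 4 at hlh-30 alone of the 6, against 0.0751%. The 6 windows together spanned 89747 bp and held 11 IDR summits, or 1.23 per 10 kb, against 0.101 per 10 kb in the whole nuclear genome.

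The sequences shown here are those of the IDR peaks with the highest signal at mdl-1, mml-1 and hlh-30, since these differ in how their GATA words lie about the summit. The mdl-1 peak lies at chrX:6736339-6736594 on the plus strand, the mml-1 peak at chrIII:7375544-7375799 and the hlh-30 peak at chrIV:4031096-4031351, both on the minus strand. All are ce11 coordinates, and the letters were read 5′ to 3′ on the strand of the gene from the RefSeq genome WBcel235, which is ce11. Capitals mark GATA words and CACGTG.
mdl-1 peak 1: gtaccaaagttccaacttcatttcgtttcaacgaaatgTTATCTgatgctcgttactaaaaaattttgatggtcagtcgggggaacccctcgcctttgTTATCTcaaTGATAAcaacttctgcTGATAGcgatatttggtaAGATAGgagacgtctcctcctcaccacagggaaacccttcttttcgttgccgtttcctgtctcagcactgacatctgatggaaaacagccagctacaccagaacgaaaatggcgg
mml-1 peak 2: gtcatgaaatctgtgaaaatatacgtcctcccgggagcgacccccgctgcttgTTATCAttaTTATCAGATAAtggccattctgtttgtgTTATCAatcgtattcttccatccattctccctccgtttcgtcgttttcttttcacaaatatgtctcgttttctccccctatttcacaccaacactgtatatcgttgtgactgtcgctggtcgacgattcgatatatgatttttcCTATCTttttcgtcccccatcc
hlh-30 peak 1: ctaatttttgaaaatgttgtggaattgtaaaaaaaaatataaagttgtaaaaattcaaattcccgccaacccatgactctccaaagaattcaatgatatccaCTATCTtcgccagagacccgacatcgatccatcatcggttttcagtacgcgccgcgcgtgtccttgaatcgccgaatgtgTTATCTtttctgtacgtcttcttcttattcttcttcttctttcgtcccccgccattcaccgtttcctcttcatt

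A second set shows 101 bp about the summit of peaks with a CACGTG word near it, at mdl-1 (chrX:6737453-6737553, plus strand), mml-1 (chrIII:7376661-7376761, minus strand) and mxl-3 (chrX:13353641-13353741, minus strand). Build, source and capitals are as above.
mdl-1 peak 2: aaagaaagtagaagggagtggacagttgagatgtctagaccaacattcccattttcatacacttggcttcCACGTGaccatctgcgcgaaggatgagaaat
mml-1 peak 1: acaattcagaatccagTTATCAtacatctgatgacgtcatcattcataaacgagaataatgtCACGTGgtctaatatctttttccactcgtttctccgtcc
mxl-3 peak 2: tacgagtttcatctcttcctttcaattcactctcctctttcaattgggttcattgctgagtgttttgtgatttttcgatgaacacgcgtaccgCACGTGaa

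**Figure D1:**
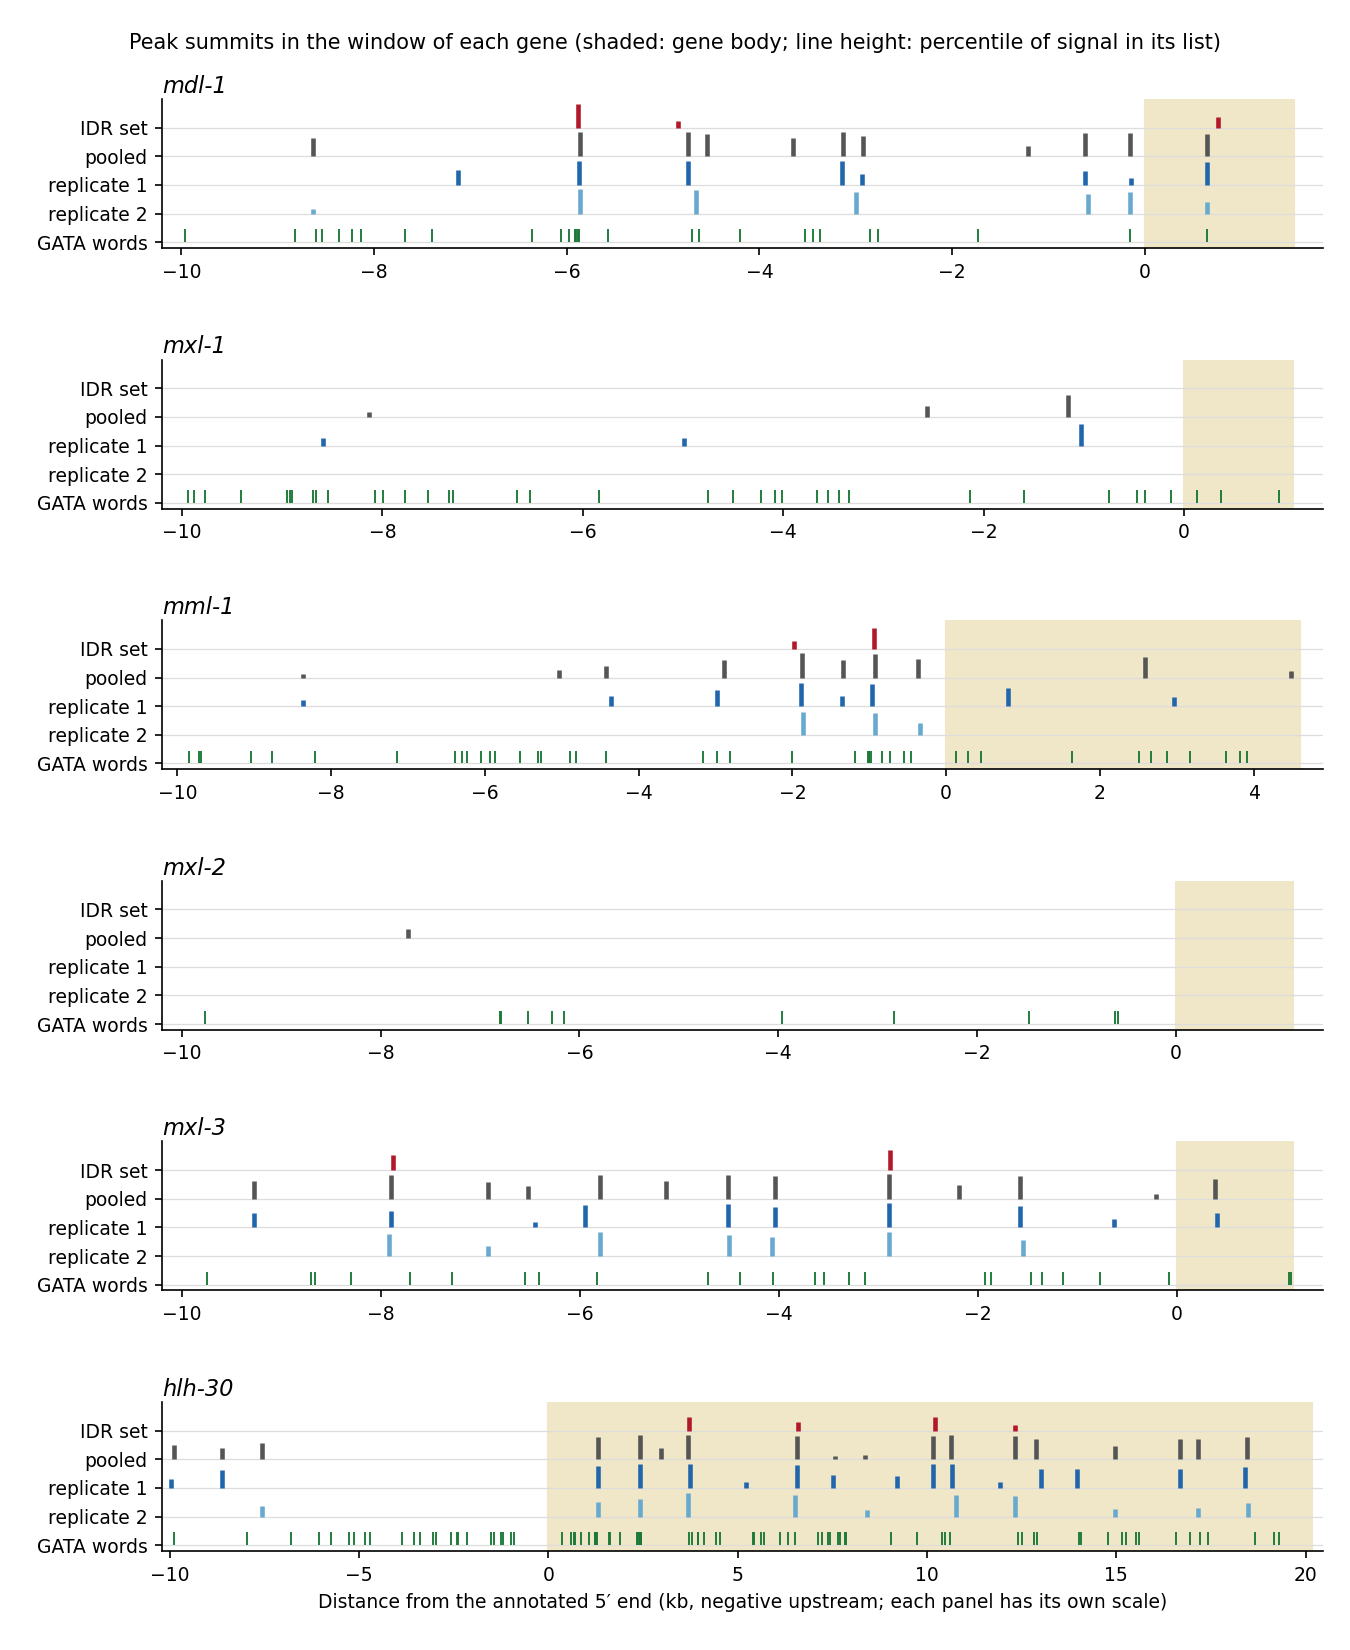
Summits of the IDR, pooled, replicate 1 and replicate 2 lists and GATA words in the window of each gene, by distance from the annotated 5′ end in kb, with upstream negative. Line height is the percentile of a peak's signal in its own list and the shaded area is the gene. The mdl-1 and mxl-3 summits lay mostly upstream, the 4 hlh-30 IDR summits lay inside the gene, and mxl-1 and mxl-2 had no IDR summit.

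The gene mdl-1 (WBGene00003163) lies at chrX:6742351-6743899 on the plus strand and is 1549 bp long. The nearest protein-coding gene upstream, R03E9.2, is 9049 bp away, so nearly the whole upstream window is intergenic. Its 3 IDR peaks are numbered along the direction of transcription.

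Peak 1 of mdl-1 was the highest of all 11. Its summit, at base 6736467, lay 5884 bp upstream of mdl-1 and 3166 bp from the 5′ end of R03E9.2, which was nearer. Its signal was 157 in the IDR set, rank 20 of 1014. The overlapping peak had a signal of 66.7 and rank 32 in replicate 1, and 115 and rank 26 in replicate 2. It thus stood near the top of the list in either replicate. In the pooled list it had a signal of 183 and rank 24.

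Peak 2 of mdl-1 lay 1036 bp from peak 1, 4848 bp upstream of the gene, at chrX:6737375-6737630, and it too was nearer to the 5′ end of R03E9.2, at 4202 bp. It stood low in the IDR set, with a signal of 50.2 and rank 859, but high in the lists of the replicates, with rank 237 of 17087 in replicate 1 and 353 of 7079 in replicate 2. The IDR summit was 103 bp from that of replicate 1 and 186 bp from that of replicate 2, so the peaks overlapped without sharing a summit.

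Peak 3 was inside mdl-1, in an intron 758 bp past the 5′ end, at chrX:6742981-6743236. Its IDR signal was 55.7, rank 645. Its ranks were 1225 in replicate 1 and 4241 in replicate 2; no other of the 11 peaks found in replicate 2 stood as low there.

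The pooled list held 11 summits in the mdl-1 window, and 8 of these peaks were overlapped in both replicates. These 8 are not all separate sites. The pooled peaks 4741 and 4539 bp upstream overlapped the same replicate peaks, of ranks 237 and 353. Those 3128 and 2927 bp upstream overlapped the same replicate 2 peak, of rank 840. The 8 included 2 close to the 5′ end that no IDR peak overlapped, 155 and 624 bp upstream. The peak 155 bp upstream had a pooled signal of 49.6 and rank 1418. Its rank was 14119 of 17087 in replicate 1 and 1026 of 7079 in replicate 2, so it stood low in replicate 1.

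Past the 3′ end of mdl-1, outside the window, 4 further IDR peaks had mdl-1 as the gene with the nearest 5′ end. The first lay 115 bp past the end, at chrX:6743886-6744141, with a signal of 93.1 and rank 124, and the next 823 bp past it, with a signal of 82.2 and rank 192. The other two lay in an intron of the neighbouring gene abts-4, with signals of 66.4 and 55.7. These peaks show how the end of the window decides the count, since the weaker peak 3 lay inside it and the stronger peak 115 bp past the gene outside it. By nearest 5′ end mdl-1 had 5 IDR summits, a number reached by 3 genes in the genome, the others being nhr-3 and elt-3, the gene carried by the transgene. At least 1 such summit was assigned to 4 of the 6 genes, against 4.23% of all genes.

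The Max-like gene mxl-1 (WBGene00003509, chrV:11244839-11245926, plus strand) begins 112 bp from its upstream neighbour pgap-1. It had no IDR summit and no replicate 2 summit in its window, and 3 summits each in the pooled list and replicate 1. The strongest pooled peak, 1156 bp upstream in a coding exon of pgap-1, had a signal of 28.3 and rank 4116. The gene for the partner of MDL-1 thus had no peak found in both replicates, while mdl-1 had several.

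The gene mxl-3 (WBGene00003511, chrX:13349639-13350804, minus strand) is 1166 bp long and its upstream neighbour C49F8.15 is 10396 bp away. Both of its IDR summits were intergenic and upstream, 4994 bp apart. Peak 1, at chrX:13358557-13358812 and 7881 bp upstream, was nearer to the 5′ end of C49F8.15 and was the farthest upstream of all 11. It had an IDR signal of 63.8, rank 444. Its rank was 6664 of 17087 in replicate 1 and 712 of 7079 in replicate 2.

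Peak 2 of mxl-3, at chrX:13353563-13353818 and 2887 bp upstream, had an IDR signal of 83.2, rank 183. It stood near the top of the list in either replicate. It ranked 130 in replicate 1, with a signal of 45.8, and 69 in replicate 2, with a signal of 89.1. In the pooled list it had a signal of 136, rank 73, and the summits of the 3 lists all lay within 10 bp of the IDR summit. A further IDR peak lay 1030 bp past the 3′ end, outside the window, with a signal of 53.0 and rank 749.

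The mxl-3 window also had 13 pooled summits, the densest of the 6 at 11.6 per 10 kb. Of these peaks, 6 were overlapped in both replicates, and 4 of the 6 by no IDR peak. The strongest of those, 5798 bp upstream, had a pooled signal of 92.4 and rank 316, with rank 1306 in replicate 1 and 134 in replicate 2.

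The Mondo gene mml-1 (WBGene00003378, chrIII:7370130-7374731, minus strand) is 4602 bp long, and its upstream neighbour T20B12.7 is 3119 bp away. It had 2 IDR summits, 1980 and 941 bp upstream, 1039 bp apart and both intergenic. By the outermost annotated 5′ end of each gene, the nearer one was the only IDR summit of the 6 genes in a promoter window, from 1500 bp before to 500 bp after that end, so that 1 of 6 genes had such a summit, against 2.95% of all genes.

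The order of the pair depended on the list. Peak 2, the nearer one, had the higher IDR signal, 85.9 and rank 164, against 51.9 and rank 791 for peak 1, at chrIII:7376583-7376838. In replicate 1 peak 2 had a signal of 17.3 and peak 1 of 26.8, and in replicate 2 peak 2 had 38.8 and peak 1 had 53.3. Peak 1 was thus the higher of the pair in both replicates and in the pooled list, where peak 2 had 57.6 and peak 1 had 85.3. The IDR summit of peak 1 was 94 bp from the replicate 1 summit and 115 bp from the replicate 2 summit, whereas those of peak 2 lay 18 and 15 bp away.

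Its Max-like partner gene mxl-2 (WBGene00003510, chrIII:186949-188131, minus strand) had the emptiest window. There was no IDR summit and none from either replicate. A single pooled peak lay 7724 bp upstream in an intron of F40G9.17, with rank 21925.

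The genes mxl-1 and mxl-2 are also the pair with the closest upstream neighbours, 112 and 706 bp. The other 4 genes had at least 3 kb to the next gene. In the whole genome an IDR summit in the window was found at 12.5% of genes with a gap of 3 kb or more and at 10.2% of those with a gap under 1 kb. The part of gene spacing in the difference among the 6 was not tested.

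The TFEB gene hlh-30 (WBGene00020930) spans chrIV:4014793-4034951 on the minus strand, 20159 bp with 13 annotated transcripts from 10 different start positions. Its window of 30159 bp was longer than those of 99.0% of genes, and a longer window can hold more summits. Its 4 IDR summits were all in introns, 3727, 6590, 10212 and 12313 bp past the 5′ end, with gaps of 2863, 3622 and 2101 bp. No IDR summit lay in the 10 kb upstream.

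Peak 1 of hlh-30 was the strongest of the 4 in every list, with an IDR signal of 62.3 and rank 480, rank 213 in replicate 1 and rank 141 in replicate 2. Its nearest annotated transcript start was 3097 bp downstream. Peak 2, at chrIV:4028233-4028488, had an IDR signal of 53.2, rank 738, and ranks of 1031 in replicate 1 and 907 in replicate 2. It lay 234 bp upstream of the start of transcripts W02C12.3b.1 and W02C12.3c.1, at base 4028127, the closest of the 4 to an annotated start.

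Peaks 3 and 4 of hlh-30 were each overlapped in a single replicate. Peak 3, at chrIV:4024611-4024866, had an IDR signal of 61.1 and rank 508, and rank 233 in replicate 1 with no overlapping peak in replicate 2. Peak 4, at chrIV:4022510-4022765, had an IDR signal of 49.8 and rank 871, and rank 1104 in replicate 2 with no overlapping peak in replicate 1. With the IDR peaks limited to those overlapped in both replicates, hlh-30 kept 2. By nearest 5′ end of a gene it had 4, a number that 8 genes in the genome reached or passed.

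**Figure D2:**
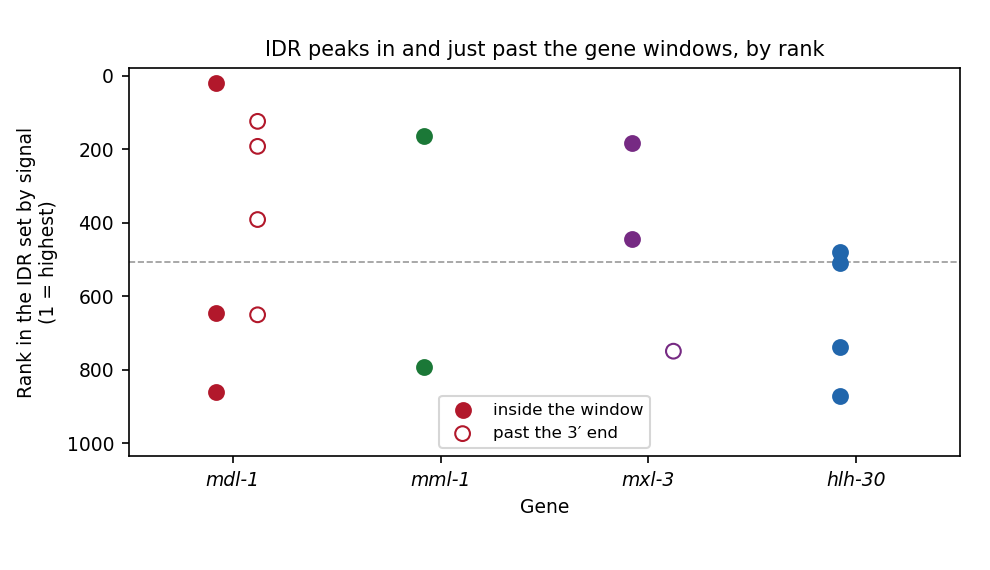
Rank by signal in the IDR set of 1014 peaks, with 1 at the top, for the 11 peaks inside the windows (filled) and the 5 peaks past the 3′ ends (open). The dashed line marks the middle rank. The mdl-1 peaks ran from rank 20 to rank 859, and the hlh-30 peaks from rank 480 to rank 871.

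Over the 11 IDR peaks, 6 were intergenic, 5 intronic and 0 in a coding exon. For 8 of the 11, the gene whose window held the peak also had the nearest 5′ end. The same shares over all 1014 peaks are not given here. These counts therefore do not set the 11 peaks apart from the whole set. By rank, 5 of the 11 lay above the median signal of the set. All 11 were overlapped in the pooled list, 10 in replicate 1, 10 in replicate 2 and 9 in both. In the whole set of 1014 peaks, 989 were overlapped in the pooled list, 958 in replicate 1 and 940 in replicate 2. The number overlapped in both replicates is not given here for the whole set, so the 9 cannot be set against it. Among the 1014 highest peaks of a replicate stood 6 of the 11 in replicate 1, 8 in replicate 2 and 5 in both. Of all 1014 IDR peaks, 57.7% were so in replicate 1, 59.3% in replicate 2 and 46.7% in both. Over the whole set, too, membership did not mean a high rank in each replicate.

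Neighbouring IDR summits within a window were 1036 to 5606 bp apart, with a median of 2863 bp over 7 gaps. The median gap between neighbouring summits over the whole IDR set was 43316.5 bp, with 28.5% within 10 kb. The windows are short, so gaps inside them had to be short as well, and the comparison is a description. The closest pairs, at mdl-1 and mml-1, were spaced by nearly the same distance by their IDR summits, 1036 and 1039 bp. In the pooled list the summits of these pairs lay 5857 and 4741 bp upstream of mdl-1 and 1874 and 928 bp upstream of mml-1. There the 2 distances differed, so the match holds for the IDR summits only. Of all 1008 gaps of the set, 121 were within 2 kb.

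The looser lists gave a background against which few genes stand out. A pooled summit was found in the windows of 6 of 6 genes, against 95.4% of all genes, a replicate 1 summit in those of 5, against 83.9%, and a replicate 2 summit in those of 4, against 51.7%. The number of summits differed more. The 6 windows held 56 pooled, 45 replicate 1 and 28 replicate 2 summits, or 6.24, 5.01 and 3.12 per 10 kb, against 2.99, 1.70 and 0.706 per 10 kb in the whole genome.

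Of the 56 pooled peaks, 22 were overlapped in both replicates, or 39.3%, against 14.6% of the whole pooled list. They were at mdl-1 (8), mxl-3 (6), hlh-30 (6) and mml-1 (2). An IDR peak overlapped 9 of the 22, or 40.9%, against 21.7% in the whole list. The remaining 13 were in both replicates but overlapped by no IDR peak. Among them, the mdl-1 peak 4539 bp upstream overlapped the same replicate peaks as IDR peak 2 of mdl-1. A GATA word lay within 50 bp of the pooled summit in 6 of these 13. Of the 1014 pooled peaks of highest signal, 44.9% had such a word. The share over all pooled peaks of the same kind was not counted.

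Seen from the replicates, 21 of the 45 replicate 1 peaks were overlapped in replicate 2, or 46.7%, against 25.2% of the whole replicate 1 list. In the other direction 20 of the 28 replicate 2 peaks were overlapped in replicate 1, or 71.4%, against 60.1%.

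**Figure D3:**
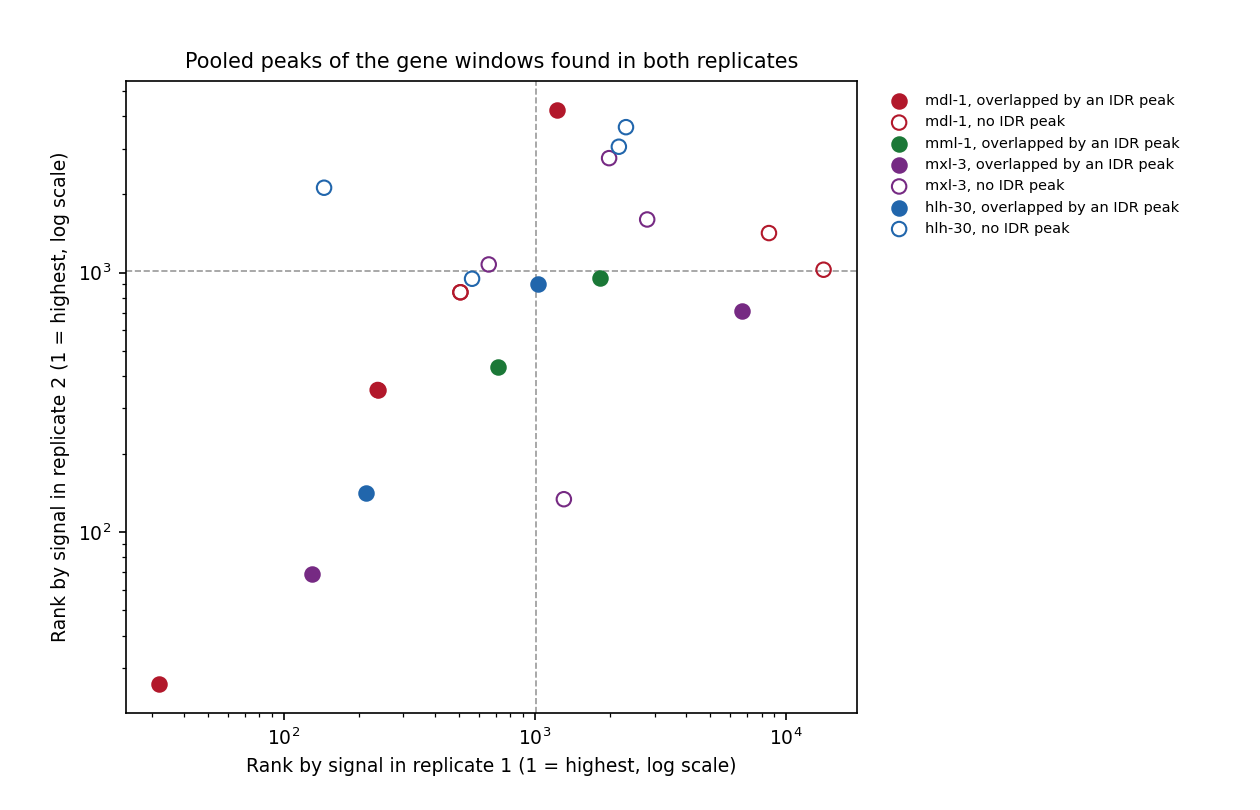
Rank in replicate 1 against rank in replicate 2, on log scales, for the 22 pooled peaks of the windows that were overlapped in both replicates, coloured by gene. Filled points were overlapped by an IDR peak (9) and open points were not (13), and the dashed lines mark rank 1014 in each replicate. The points nearest the lower left corner were filled, but several open points lay at ranks as high as those of filled ones. Pooled peaks that overlap the same replicate peaks share a point.

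Among the 1014 pooled peaks of highest signal, 11 lay in these windows, and an IDR peak overlapped 6 of them. The other 5, or 45.5%, had none, against 38.6% of those 1014 peaks overall. They were the mxl-3 peak described above, another at mxl-3 4508 bp upstream (pooled rank 866), 1 at mdl-1 3128 bp upstream (rank 601) and 2 in introns of hlh-30, 2431 and 10641 bp past the 5′ end (ranks 591 and 660). The hlh-30 peak at 2431 bp had 4 GATA words within 50 bp of its summit and 6 in the whole peak. It ranked 145 in replicate 1 and 2123 in replicate 2. Its 101 bp about the summit, at chrIV:4032470-4032570 on the minus strand, are shown since no IDR peak had as dense a group of words at this gene, with GATA words in capitals.
hlh-30 pooled peak: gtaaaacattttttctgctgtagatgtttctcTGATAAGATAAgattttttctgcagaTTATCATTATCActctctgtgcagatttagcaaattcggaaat

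Within 50 bp of the IDR summit, 4 of the 11 peaks had a GATA word, or 36.4% (95% Wilson interval 15.2 to 64.6), against 533 of 1014 in the whole set, or 52.6% (49.5 to 55.6). The interval for the 11 peaks is wide and covers counting error only. It is no test against the whole set, since the genes were chosen with these peaks known. The 4 were mdl-1 peak 1, both mml-1 peaks and hlh-30 peak 1. In stretches of the same length 500 bp to each side, 6 of 22 had a word, or 27.3%, against 22.2% for the whole set. Over whole peaks the count was 7 of 11, or 63.6%, against 74.7%.

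The 3 mdl-1 peaks differed most. Peak 1 had 5 GATA words, 4 of them within 50 bp of the summit. Counted from the summit to the leftmost base of each word, an AGATAA on the minus strand lay 30 bp before the summit, TGATAA 21 bp and TGATAG 5 bp before it, and AGATAG 13 bp after it. The fifth word, AGATAA on the minus strand, lay 90 bp before the summit. Peak 2 had no GATA word, although the pooled summit 107 bp away had a TGATAA on the minus strand within 50 bp. Peak 3 had a single TGATAA on the minus strand, 110 bp from the IDR summit, and this word too lay within 50 bp of the pooled summit.

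The mml-1 peak 2 also had 5 GATA words, but they lay to the side of the summit. Counted to the leftmost base of each word on the plus strand of the chromosome, they lay at 32, 55, 60 and 69 bp on the same side and 112 bp on the opposite side. A TGATAA and the AGATAA on the opposite strand overlapped, with starts 5 bp apart, which gives the longest run of capitals in that sequence. At least 5 words were found in 2 of the 11 peaks, mdl-1 peak 1 and mml-1 peak 2, and in 39 of the 1014, or 3.85%. Neither mxl-3 peak had any GATA word, although mxl-3 peak 2 stood at rank 183.

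A GATA word was not rare outside peaks. The 6 windows held 232 words, or 2.59 per kb, against 2.38 per kb in the genome, with 88 at hlh-30, 43 at mml-1, 37 at mxl-1, 28 at mdl-1, 25 at mxl-3 and 11 at mxl-2. The window of mxl-1 thus held more words than that of mdl-1 but had no IDR peak. IDR peaks covered 3.15% of the windows and held 16 of the 232 words, or 6.90%. Pooled peaks covered 17.7% and held 57, or 24.6%. A match is a description of the letters and not a measured binding site.

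The word CACGTG, a palindrome counted once per occurrence, was in 5 of the 11 IDR peaks, or 45.5%, against 126 of 1014, or 12.4%. Within 50 bp of the summit it was in 3 of 11, or 27.3% (9.75 to 56.6), against 75 of 1014, or 7.40% (5.94 to 9.17). These 3 are the peaks of the second group of sequences above, at mdl-1, mml-1 and mxl-3. In the stretches 500 bp to the side, 0 of 22 had it, against 1.63% in the whole set. The gene windows were themselves rich in the word, however. They held 38, or 4.23 per 10 kb, against 1.77 per 10 kb in the genome, with 13 in the mdl-1 window (11.3 per 10 kb) and 9 in that of mxl-3 (8.06 per 10 kb). Hence the peaks lay in windows where the word was frequent, and the part of that in the count was not tested. The word was chosen because it is the E-box of this family, and these factors themselves were not measured. The intervals given for CACGTG are likewise no test, since the genes were chosen with these peaks known.

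By content, 3 of the 11 peaks had CACGTG and no GATA word, against 25 of 1014, or 2.47%. They were mdl-1 peak 2 and both mxl-3 peaks. For mdl-1 peak 2 this depends on the list, since the overlapping pooled peak held 2 GATA words as well as CACGTG. The pooled peaks overlapping the mxl-3 peaks held no GATA word. A GATA word without CACGTG was in 5, against 64.7% of the whole set, both were in 2, against 9.96%, and neither was in 1, hlh-30 peak 3, against 22.9%. The repeat word GAGAGA, on either strand, was in 5 of 11 peaks, or 45.5%, against 45.9% of the whole set. It was in mdl-1 peak 2 in 4 overlapping copies and in hlh-30 peak 2 in 4 copies.

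**Figure D4:**
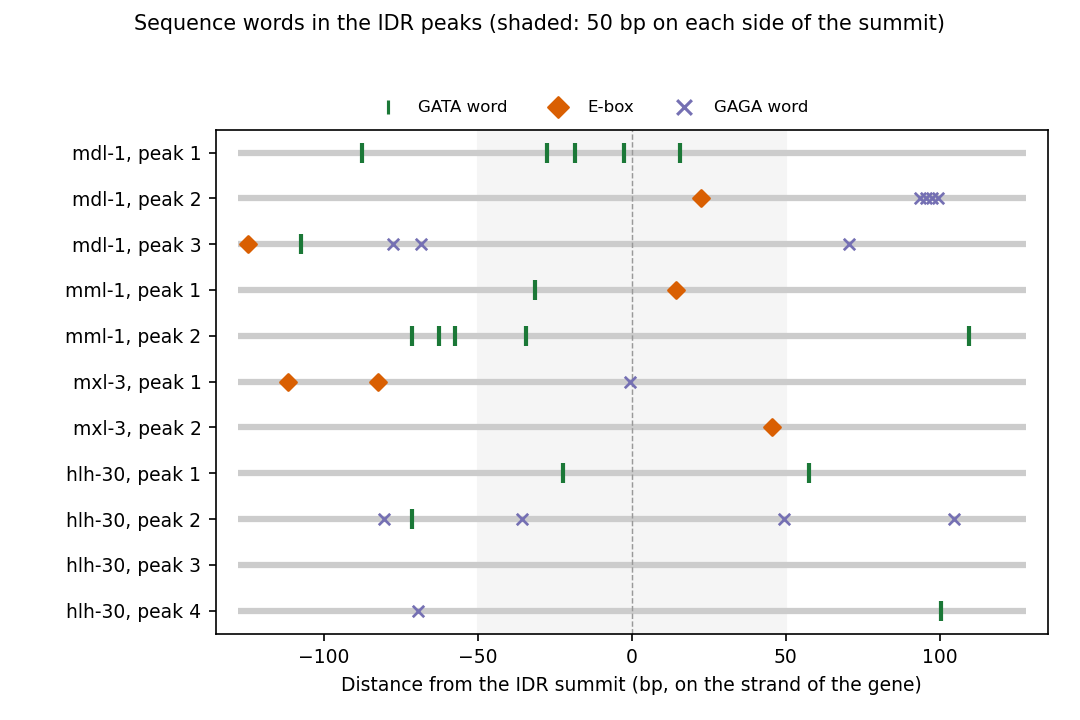
Positions of GATA words (green), E-boxes with the letters CACGTG (orange) and the repeat word with the letters GAGAGA (violet) in the 11 IDR peaks, in bp from the IDR summit on the strand of the gene, with the midpoint of each word plotted. The shaded band is 50 bp to each side. The 5 GATA words of mdl-1 peak 1 lay mostly inside the band, those of mml-1 peak 2 mostly outside it, and hlh-30 peak 3 had none of the words.

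Base composition at the summits was broad. The 101 bp about the 11 summits had a median GC content of 45.5%, and ran from 37.6 to 61.4%, against a median of 42.6% over all IDR summits. The IDR summits lay a median of 25 bp from the pooled summits, with 4 of 11 more than 50 bp away, against a median of 22 bp and 23.2% in the whole set. For these 4 peaks, mdl-1 peaks 2 and 3, mml-1 peak 1 and hlh-30 peak 3, the words within 50 bp depend on which summit is used.

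The other genes of the pathway were taken from lists of further bHLH genes, TOR signalling genes, and autophagy and lysosome genes. Of 35 other bHLH genes, 5 had an IDR summit in the same window, or 14.3%, against the 10.8% of all genes given above. They included cky-1, a bHLH-PAS gene (signal 91.9, 3028 bp upstream), hlh-26 and hlh-27, which share a peak (91.4), and hlh-11 (75.4, 117 bp upstream). Of these, hlh-11 was itself the nearest gene. Over the whole list, 2 of the 35 were the nearest gene of an IDR summit, hlh-10 and hlh-11, against 4.23% of all genes.

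Of 18 TOR signalling genes, 4 had an IDR summit in the window, or 22.2%, against 10.8% of all genes. They were daf-15, the worm Raptor (signal 95.2), rsks-1, the S6 kinase (58.0), aak-2, a catalytic subunit of AMP-activated kinase (55.1), and the sestrin gene sesn-1 (49.0). The summit of highest signal at each lay at least 4163 bp upstream and nearer to the 5′ end of another gene. The window of daf-15 held 2 summits, and the distance of the other is not given here. Over the whole list, 0 of the 18 was the nearest gene of an IDR summit, against 4.23% of all genes.

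Of 41 autophagy and lysosome genes, 8 had an IDR summit in the window, or 19.5%, against 10.8% of all genes. In the promoter window 2 had one, or 4.88%, against 2.95%. The highest signals were at the lipase gene lipl-5 (77.6, 4353 bp upstream), lgg-3, an ATG12 homologue (77.2, 8415 bp upstream), epg-9 (68.4, 1605 bp past the 5′ end) and atg-16.1 (65.6, 7020 bp upstream). Of these, epg-9 was the nearest gene. Over the whole list, 3 of the 41 were the nearest gene of an IDR summit, epg-9, lgg-1 and lgg-2, against 4.23% of all genes. The promoter summits were at lgg-1 (51.1, 878 bp upstream) and lgg-2 (47.9, 141 bp upstream), worm homologues of the autophagosome protein Atg8, and they were named after their values were seen. Median summits per gene were 0 in each of the 3 lists.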

How the data were processed

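ELT-3 ChIP-seq of 2 biological replicates of whole L1 larvae was used as deposited peak lists on ce11. Per the deposited records, ChIP and control alignments gave the replicate and pooled lists, from which the IDR set was made. Which aligner, peak caller and threshold were used is not given in the sources used here. For each peak the authors deposited a signal, used only to rank peaks within a list, a q-value score, which entered no result, and a summit offset. Read depth is unknown, and intervals cover counting error over peaks only.

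Genes came from Ensembl release 115 and sequence from WBcel235, which is ce11. Coordinates are 1-based. A peak belonged to a gene when its summit lay from 10 kb upstream of the 5′ end to the gene's end, and peaks overlapped from 1 shared bp. Words of 6 letters were counted on either strand, up to 50 bp from a summit and in whole peaks. Scripts used Python 3.11.15, pandas 2.3.3, numpy 2.4.6, scipy 1.17.1 and matplotlib 3.10.9, and the counting was tested on simulated data.

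The genes, lists and alternatives were chosen with earlier results of these data known, so no test was run. Named were the 6 genes, up to 4 genes of each list with the highest IDR signal, and the nearest gene of each peak. Alternatives changed the window, the peak set, the word and the replicates. The lists on ce10 were left out.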

Additional observations from a re-analysis of the deposited data

How the results depend on the processing

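With the promoter window of 1500 bp upstream to 500 bp downstream, the genes with an IDR summit fell to 1 of 6 and their summits to 1, and the counts became 1 of 35 other bHLH genes, 0 of 18 TOR genes and 2 of 41 autophagy and lysosome genes. Limiting the IDR set to its peaks above the median signal left 5 of the 11 summits, at 4 genes. The 5 other settings of window and peak set gave 9 to 13 summits at 4 genes, and using a single replicate's strongest peaks gave 10 to 11 summits at 4 to 4 genes. Peaks with a GATA word near the summit became 2 of 11 within 25 bp and 7 of 11 over whole peaks, against 4 within 50 bp, 5 within 100 bp and 5 of 10 at the summits of either replicate alone. Over all IDR peaks the share was 52.6% within 50 bp and 74.7% over whole peaks. It was not counted within 25 or 100 bp or at the replicate summits. Counts for the 4 genes with summits stayed within 1.5 times in 24 of 36 cases, and ranged from 0 to 5 at mdl-1, 0 to 3 at mxl-3, 1 to 2 at mml-1 and 0 to 4 at hlh-30. At mml-1 the count was 1 without replicate 2 and with the strongest pooled peaks, and at mxl-3 it was 1 with 5 kb upstream. The causes were not tested. The share of all genes with a summit was 11.9% with the strongest pooled peaks and 11.5% with those of replicate 1. No paired analysis was possible because there is 1 group. With 2 replicates and 11 peaks, shares have wide intervals, and no list gives read counts.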
